A study of Homo sapiens with 8 samples.

Results

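The response to doxycycline was examined in the tet-SLC7A1 line of U937 SLC19A1-/- cells. The members were the 2 tet-SLC7A1 dox libraries and the 2 tet-SLC7A1 no dox libraries, 4 of the 8 libraries in the series, chosen by the line and treatment named in their labels. The remaining 4 were 2 tet-SLC7A2 dox and 2 tet-SLC7A2 no dox libraries, which were used for the spread between libraries and for the test of a difference between lines. U937 is a human monocytic line, and all 8 cultures lacked a working SLC19A1 by design and carried a Flag-tagged transporter under a tetracycline-inducible promoter. Dox cultures received 1 µg/mL doxycycline for 24 h. Libraries with the same number were set against each other as pair 1 and pair 2, and each difference below is dox minus no dox within a pair, on the log2 scale of CPM (the count scaled to the library total) after TMM normalisation.

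No construct-free cells with doxycycline were among these samples, so the drug and the induced transporter cannot be told apart. The labels do not say that libraries of a group came from separate cultures, and the p-values measure only the spread between these libraries. The labels leave unsaid whether a line was grown from 1 clone.

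SLC7A1 encodes CAT-1, the widely expressed cationic amino acid transporter that carries arginine, lysine and ornithine across the plasma membrane. Cells read amino acid supply through the kinase GCN2 and the transcription factor ATF4, which drives genes of amino acid synthesis, amino acid uptake and tRNA charging, and through mTORC1 at the lysosome. ATF4 binds with C/EBP partners at a composite element, and genes of cholesterol synthesis are driven by SREBP2, which works together with NF-Y bound at CCAAT boxes. SREBP2 is held in the endoplasmic reticulum by INSIG proteins when sterol is plentiful. The series title ties SLC7A1 to the response to cGAMP through STING, and SLC19A1 imports cGAMP as well as folates.

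Promoters of 5 genes from the cholesterol, ATF4 and tRNA synthetase lists are shown first, because each has a window with a motif of the factors tied to its list. The window printed was the first that held the motif. HMGCS1 and ASNS each had 2 windows, of which 1 held it. Sequences are from RefSeq (GRCh38.p14) and run from 250 bases before to 50 after a start of transcription, 5′ to 3′ on the strand of the gene. INSIG1 and HMGCS1 were lower with dox in both pairs. Capitals mark CCAAT, which on the opposite strand reads ATTGG.
INSIG1, chr7:155297628-155297927, plus strand: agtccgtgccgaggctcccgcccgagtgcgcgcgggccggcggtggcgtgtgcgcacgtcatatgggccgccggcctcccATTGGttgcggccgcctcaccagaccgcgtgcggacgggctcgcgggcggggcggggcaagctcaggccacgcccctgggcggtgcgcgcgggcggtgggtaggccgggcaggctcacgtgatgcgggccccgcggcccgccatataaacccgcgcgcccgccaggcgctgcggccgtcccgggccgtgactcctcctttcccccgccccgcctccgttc
HMGCS1, chr5:43313363-43313662, minus strand: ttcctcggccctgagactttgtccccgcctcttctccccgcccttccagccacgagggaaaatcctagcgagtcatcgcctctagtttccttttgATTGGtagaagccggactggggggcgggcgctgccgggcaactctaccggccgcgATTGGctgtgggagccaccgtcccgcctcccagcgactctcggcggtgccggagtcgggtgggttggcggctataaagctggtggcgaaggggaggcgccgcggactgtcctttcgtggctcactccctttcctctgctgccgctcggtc
The next promoters belong to MARS1, AARS1 and ASNS, which were higher with dox in both pairs. Capitals mark the composite ATF4 element, searched as TGATGNAA on both strands.
MARS1, chr12:57487818-57488117, plus strand: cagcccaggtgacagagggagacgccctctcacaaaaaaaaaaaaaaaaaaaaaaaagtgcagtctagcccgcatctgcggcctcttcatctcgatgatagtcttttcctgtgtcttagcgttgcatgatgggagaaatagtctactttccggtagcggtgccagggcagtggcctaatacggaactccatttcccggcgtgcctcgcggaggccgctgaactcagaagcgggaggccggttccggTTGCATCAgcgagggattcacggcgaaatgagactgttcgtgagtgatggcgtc
AARS1, chr16:70289457-70289756, minus strand: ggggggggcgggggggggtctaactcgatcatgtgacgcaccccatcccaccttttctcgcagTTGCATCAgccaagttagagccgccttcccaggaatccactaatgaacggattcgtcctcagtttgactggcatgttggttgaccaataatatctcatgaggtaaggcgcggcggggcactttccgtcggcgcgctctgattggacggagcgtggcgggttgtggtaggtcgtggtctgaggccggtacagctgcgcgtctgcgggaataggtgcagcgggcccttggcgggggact
ASNS, chr7:97872359-97872658, minus strand: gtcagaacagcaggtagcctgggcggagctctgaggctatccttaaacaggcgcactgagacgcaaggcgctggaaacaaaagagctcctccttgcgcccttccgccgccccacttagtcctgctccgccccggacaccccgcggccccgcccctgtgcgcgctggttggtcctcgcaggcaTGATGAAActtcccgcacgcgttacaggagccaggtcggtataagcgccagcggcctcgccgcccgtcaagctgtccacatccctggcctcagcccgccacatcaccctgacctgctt
CCAAT was present on either strand in 77.3% of 22 windows of the cholesterol list, against 34.6% of all 35116 promoter windows. Counted by gene, 15 of the 17 cholesterol genes with a window held it, and CYP51A1 and PMVK did not. TGATGNAA was present in 18.6% of 43 windows of the ATF4 list and in 33.3% of 21 windows of the tRNA synthetase list, against 3.62% of all windows. It was found in 8 of 24 ATF4 list genes and in 7 of 16 tRNA synthetase genes. The sterol regulatory element TCACNCCAC was found in 1 of 22 cholesterol windows, and 1.13% of all windows held it. These matches describe the letters of the windows and not binding.

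The 4 tet-SLC7A1 libraries held 17733100 to 18392786 expected counts each, so that 3 counts, taken as the floor, equalled 0.163 to 0.169 CPM. Libraries of 1 group were far apart. The standard deviation of the number 2 minus number 1 difference over 8063 genes was 0.32 among the dox libraries and 0.39 among the no dox libraries. In a principal component analysis of all 8 libraries the first component, 53.9% of the variance, set the tet-SLC7A2 dox library numbered 2 (30.5) and the tet-SLC7A2 no dox library numbered 2 (21.2) apart from the other 6 (-23.3 to -1.8). Of the marker lists, 4 of 4 erythroid and 4 of 5 T cell markers were at 0 in all 4 tet-SLC7A1 libraries. Of the B cell markers CD79A was present at 20.8 to 24.0 CPM of the library total, while MS4A1 was at 0 and CD79B had at most 0.169 CPM. Summed epithelial markers were 2.02 to 3.84 CPM and summed fibroblast markers 2.97 to 5.22 CPM. CD33, SPI1 and CEBPA, markers of myeloid cells, were present at 79.3 to 627 CPM, while CD14, a marker of mature monocytes, had at most 0.169 CPM and MPO at most 0.959 CPM.

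The construct was read first. The entry for the Flag-tagged SLC7A1 rose with dox, the only annotated entry that passed edgeR's test. It had 845 and 367 CPM of the library total in the dox libraries, against 0.264 and 0 CPM in the no dox libraries. The ratio was 3200 in pair 1 and at least 2250 in pair 2, where the no dox value was set to the floor of 3 counts per library. The dox library numbered 1 held 2.3 times the construct of the dox library numbered 2. The fitted log2 fold change was 12.01 ± 0.29 (SE), with an adjusted p of 0.0109 by edgeR with the replicate block, 0.138 without the block and 0.438 by DESeq2 with the block. The no dox libraries held only 4.72 and 0 counts of it. The error of the pair 1 difference from counting alone was 0.664, above this SE. DESeq2 with the block gave 13.5 ± 4.69 (SE), so the size of the change is uncertain. The assembled locus XLOC_024383 carried the same counts and was the second entry to pass. The short Flag entry was at 2.54 and 1.85 CPM with dox, against 0.112 and 0 CPM in the no dox libraries.

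The endogenous SLC7A1 gene on chromosome 13 was higher with dox in both pairs. It had 132 and 97.1 CPM in the dox libraries, against 75.9 and 73.3 CPM in the no dox libraries, and the groups did not overlap. The differences were 0.80 in pair 1 and 0.41 in pair 2. In edgeR the log2 fold change was 0.60 ± 0.12 (SE, adjusted p = 1), and DESeq2 with the block called it at an adjusted p of 0.00289. The gene may share reads with the construct, and the larger difference lay in the pair with the larger construct level. In the tet-SLC7A2 line the entry for this construct was at 0 in each library. The endogenous SLC7A1 differences there were 0.13 in pair 1 and 0.33 in pair 2. The part of shared reads was not tested. On the TPM scale, which relates counts to transcript length, the construct stood at 588 and 252 TPM in the dox libraries, 27.1 and 16.7 times the endogenous gene in the same libraries.

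Endogenous SLC7A2, a related transporter of arginine, was at 0 in both dox libraries, against 0.0558 and 0 CPM in the no dox libraries. SLC19A1 had 132 and 124 CPM in the dox libraries, against 153 and 126 CPM in the no dox libraries. Its pair differences were -0.21 and -0.03, and an mRNA can persist after a disrupting edit, so these counts do not check the knockout.

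**Figure D1:**
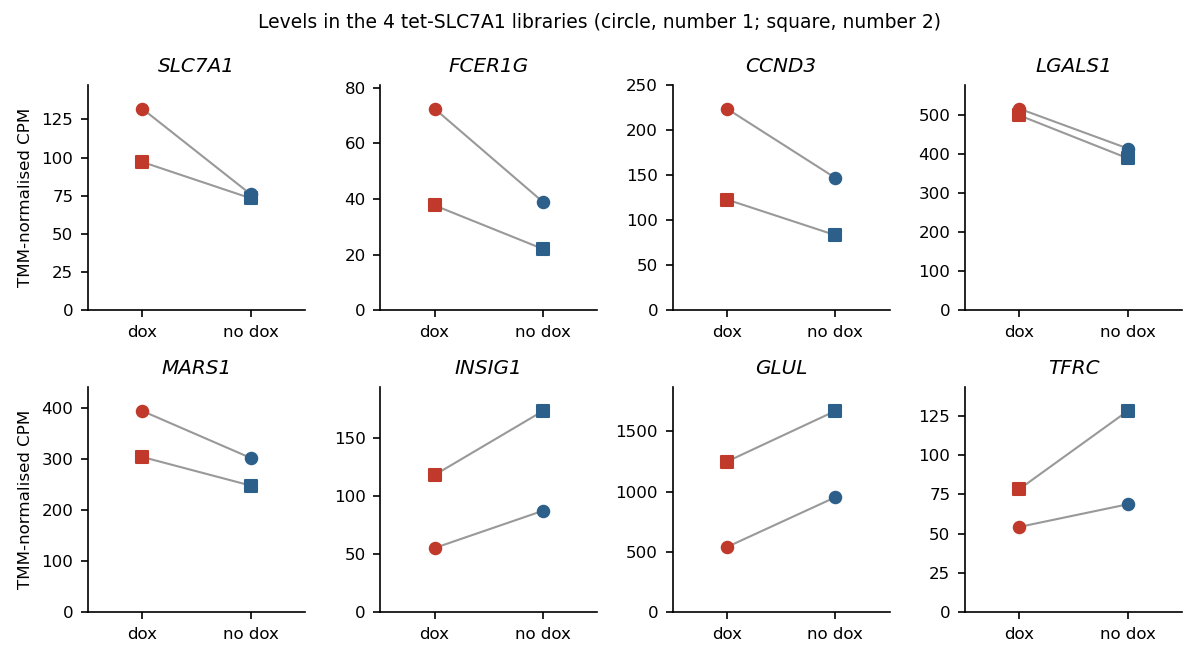
TMM-normalised CPM of 8 genes in the tet-SLC7A1 line, dox libraries at the left and no dox libraries at the right of each panel, each y axis starting at 0. Circles are libraries numbered 1, squares libraries numbered 2, and grey lines join the libraries of a pair. For INSIG1, GLUL, TFRC, CCND3 and FCER1G both grey lines slope the same way although the ranges of the groups overlap.

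Across the transcriptome the 2 pairs had little in common. Among 8063 annotated genes with a mean of at least 10 CPM, the pair 1 and pair 2 differences had a Pearson correlation across genes of 0.01 (Spearman's rho -0.00). The pairs share no library. The median gene was at 0.00 in pair 1 and 0.03 in pair 2, and the standard deviation over genes was 0.26 and 0.19. Both differences had the same sign in 3923 genes (48.7%). The gene was higher in both pairs in 2248 genes (27.9%) and lower in both in 1675 (20.8%). It was lower in pair 1 and higher in pair 2 in 2369 genes, and the other way round in 1771. Beyond 0.5 in both pairs, 9 genes were higher with dox (0.112% of 8063) and 8 lower (0.0992%), against 18 genes that passed 0.5 in opposite directions. At a limit of 0.3 there were 61 higher (0.757%), 62 lower (0.769%) and 102 opposite. The limit of 10 CPM was on the mean of all 4 libraries, so a gene could pass through its higher group alone. Group means were 1.33 CPM without dox and 20.4 CPM with it for HERC1, and 7.18 and 13.4 CPM for HK3. For ALPK1, a lower gene, they were 13.9 and 7.38 CPM. These counts are thus a description.

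**Figure D2:**
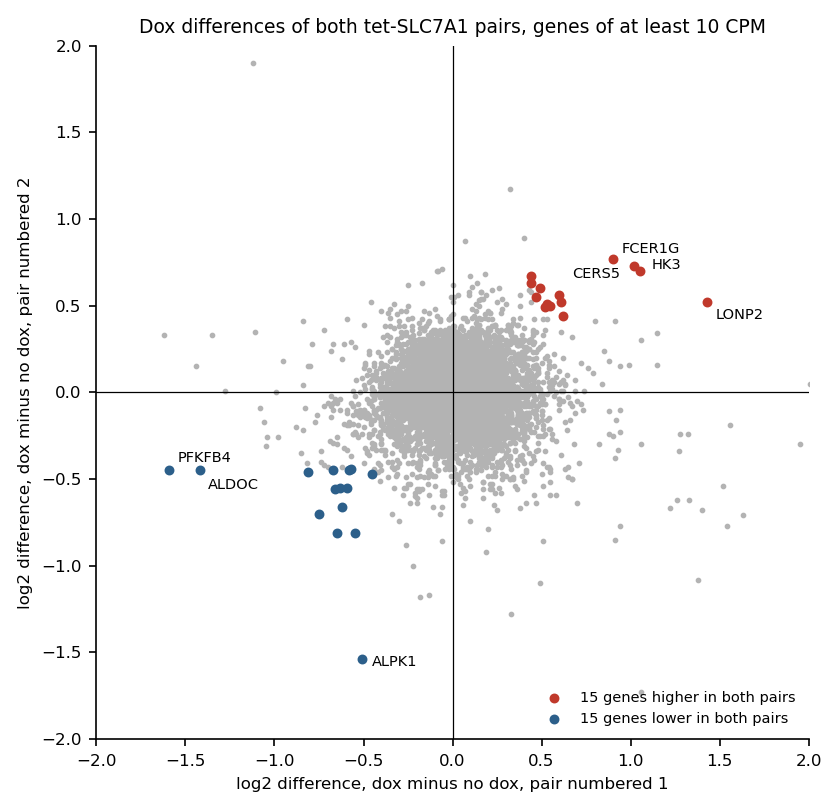
Dox minus no dox difference (log2) of each gene with a mean of at least 10 CPM in pair 1 (x axis) and pair 2 (y axis) of the tet-SLC7A1 line. Of 8063 genes, 8 lie outside the axes, HERC1 among them. The cloud has no slope (Pearson correlation 0.01), and the 15 genes highest in both pairs are in red and the 15 lowest in both pairs in blue.

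In edgeR with the replicate block 2 of 17503 entries (0.0114%) passed an adjusted p of 0.05, the construct and its identical locus, and 744 had an unadjusted p under 0.05, where 0.05 of the entries would be 875. No annotated gene passed. The count was 0 without the block, 0 when annotated genes were tested alone, 4 without pair 1 and 11 without pair 2. DESeq2 with the block called 45 entries (0.257%), 18 higher (0.103%) and 27 lower (0.154%), of which 14 were annotated genes, 30 were assembled XLOC loci without a gene name and 1 was the short Flag entry. It did not call the construct itself.

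The annotated genes that DESeq2 called were 7 higher and 7 lower with dox, and the ranges of dox and no dox libraries did not overlap in 6 of the 14. Of all annotated genes tested, 10.7% had both dox libraries above both no dox libraries and 9.09% had both below. In 11 of the 14 all 4 pairs of both lines lay in 1 direction, which held for 31.3% of the 5738 annotated genes with both tet-SLC7A1 pairs in 1 direction. These genes were called on the tet-SLC7A1 pairs with a spread estimated from all 8 libraries. The tet-SLC7A2 pairs thus also took part in the selection, and the counts of overlap and of direction are a description only. Higher were CCND3, FCER1G, CERS5, UBE2S, LGALS1, SLC7A1 and MARS1, and lower were INSIG1, CYP51A1, SCD, GLUL, TFRC, NFAT5 and VPS13A. The edgeR adjusted p of these genes was between 0.736 and 1.

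CCND3, the cyclin D3 that activates CDK4 and CDK6 in G1, had 224 and 123 CPM in the dox libraries, against 147 and 83.4 CPM in the no dox libraries. It was higher by 0.60 and 0.56 in the pairs (DESeq2 adjusted p 1.87e-08, edgeR 0.786). FCER1G, the signalling chain shared by Fc receptors of myeloid cells, had 72.5 and 37.7 CPM in the dox libraries, against 38.9 and 22.0 CPM in the no dox libraries. For both genes the dox library numbered 2 lay below the no dox library numbered 1, so the direction shows only within pairs. CERS5, a ceramide synthase, had 81.3 and 57.0 CPM in the dox libraries, against 40.1 and 34.2 CPM in the no dox libraries, with no overlap. LGALS1, the glycan-binding galectin-1, had 516 and 499 CPM in the dox libraries, against 414 and 389 CPM in the no dox libraries. Its dox values lay above both no dox values, with differences of 0.32 and 0.36 (DESeq2 adjusted p 0.00156). UBE2S, the ubiquitin-conjugating enzyme that extends chains for the anaphase-promoting complex, had 565 and 415 CPM in the dox libraries, against 429 and 322 CPM in the no dox libraries. MARS1, which charges the methionine tRNA and whose promoter is printed above, had 394 and 304 CPM in the dox libraries, against 302 and 248 CPM in the no dox libraries. It was higher by 0.38 and 0.30, without overlap.

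Of the lower genes, INSIG1 had 55.3 and 118 CPM in the dox libraries, against 87.3 and 173 CPM in the no dox libraries. The differences were -0.66 and -0.56 (DESeq2 adjusted p 1.32e-05, edgeR 1), while libraries numbered 2 held more INSIG1 than libraries numbered 1 in each group. CYP51A1, the lanosterol demethylase, had 45.0 and 79.0 CPM in the dox libraries, against 67.3 and 108 CPM in the no dox libraries. SCD, which desaturates fatty acids, had 472 and 717 CPM in the dox libraries, against 701 and 926 CPM in the no dox libraries. INSIG1, CYP51A1 and SCD all had overlapping groups and a lower dox value in each pair. GLUL, which makes glutamine from glutamate, had 542 and 1250 CPM in the dox libraries, against 955 and 1670 CPM in the no dox libraries (differences -0.82 and -0.41). TFRC, the transferrin receptor for iron uptake, had 54.3 and 78.3 CPM in the dox libraries, against 68.7 and 128 CPM in the no dox libraries (-0.34 and -0.70). GLUL was also lower in the tet-SLC7A2 line, with differences of -0.50 and -0.43, so its direction was shared by all 4 pairs. TFRC was shared likewise, with tet-SLC7A2 differences of -0.45 and -0.38. For GLUL and TFRC the dox and no dox ranges of the tet-SLC7A1 line overlapped.

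NFAT5, the factor of the osmotic stress response, had 0 and 0.225 CPM in the dox libraries, against 6.37 and 7.83 CPM in the no dox libraries. VPS13A, a lipid transfer protein, had 3.92 and 4.73 CPM in the dox libraries, against 9.79 and 16.4 CPM in the no dox libraries. Both were well separated by group, but NFAT5 held 0.5 and 4.28 counts in the dox libraries, near the floor of 3 counts in both. By this floor it is among 17 annotated genes that held at most 3 counts in exactly 1 tet-SLC7A1 library and at least 5 CPM in another. Of these 17 genes the low library was no dox 1 in 9, dox 2 in 4, dox 1 in 3 and no dox 2 in 1. PHF6 had 11.4 and 5.35 CPM in the dox libraries, against 0 and 8.81 CPM in the no dox libraries. SYNJ2 had 9.14 and 7.88 CPM in the dox libraries, against 0 and 13.5 CPM in the no dox libraries. In PHF6 and SYNJ2 a single no dox library was low, and the pairs differed in sign. Whether reads of such genes were assigned to an assembled locus in that library was not tested.

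Of the 30 XLOC loci called by DESeq2, 10 were higher and 20 lower with dox. XLOC_007136 had 13.1 and 14.9 CPM in the dox libraries, against 0 and 0 CPM in the no dox libraries (edgeR adjusted p 0.0863, DESeq2 1.87e-08). XLOC_002328 had 0 and 0 CPM in the dox libraries, against 2.14 and 3.15 CPM in the no dox libraries. The files give these loci no gene name.

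By the size of the smaller pair difference, 15 annotated genes in each direction were ranked among those of at least 10 CPM. Of the 15 higher genes, 14 had an unadjusted p under 0.05 in edgeR, and none passed adjustment (0.786 to 1). Among all 17503 entries, 744 had such an unadjusted p. The dox libraries lay above both no dox libraries in 8 of the 15, and 10.7% of all annotated genes tested did so. The ranking used the pair differences themselves, so these counts are a description. The counting error of a pair difference was 0.037 to 0.222 in pair 1 and 0.048 to 0.193 in pair 2, leaving out HERC1.

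Beside FCER1G, CERS5 and CCND3, the higher genes past 0.5 in both pairs were HERC1, HK3, CALHM2, LONP2, TRAPPC14 and TGFB1I1. HK3, a hexokinase of myeloid cells, had 15.1 and 11.7 CPM in the dox libraries, against 7.24 and 7.13 CPM in the no dox libraries. Its dox values were 1.05 and 0.70 higher on the log2 scale and did not overlap the others. HERC1, a giant ubiquitin ligase, had 34.0 and 6.81 CPM in the dox libraries, against 0 and 2.67 CPM in the no dox libraries, so its difference in pair 1 rests on a library listed at 0. LONP2, the peroxisomal Lon protease, had 9.08 and 16.7 CPM in the dox libraries, against 3.30 and 11.6 CPM in the no dox libraries. CALHM2, of a family of calcium-regulated channels, was higher by 0.61 and 0.52, and TRAPPC14, of a membrane trafficking complex, by 0.53 and 0.51. TGFB1I1, a focal adhesion adaptor, was the last inside the limit, with 0.55 and 0.50. IER5L, of an immediate early family, stood just outside with 0.49 and 0.60. The rest of the 15 were SLC37A1, CDKN2D, CC2D1A, SULT1A4 and TNFRSF12A. CDKN2D, an inhibitor of CDK4 and CDK6, had 28.2 and 12.5 CPM in the dox libraries, against 20.3 and 8.49 CPM in the no dox libraries. SULT1A4 has a near-identical copy, SULT1A3, so its count is uncertain.

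Of the 15 lower genes, 11 had an unadjusted p under 0.05, the edgeR adjusted p was 1 for each, and DESeq2 called 2. Among all 17503 entries 744 had such an unadjusted p, and DESeq2 called 0.257%. The ranking used the same pair differences as these tests, so the counts for the lower genes are a description too. The groups did not overlap in 7 of the 15, and 9.09% of all annotated genes tested had both dox libraries below both no dox libraries. Among the 8 past 0.5 in both pairs were MTG2, PPP3CA, HMGCS1, INSIG1, TUBGCP6, MINK1 and ALPK1. HMGCS1, which makes the HMG-CoA used for cholesterol, had 13.0 and 33.0 CPM in the dox libraries, against 20.0 and 52.2 CPM in the no dox libraries. Each pair was lower by a similar amount (-0.62 and -0.66), while the dox library numbered 2 exceeded the no dox library numbered 1. PPP3CA, a catalytic subunit of calcineurin, had 8.52 and 10.6 CPM in the dox libraries, against 13.4 and 18.6 CPM in the no dox libraries. MINK1, a kinase of the JNK pathway, had 29.0 and 27.1 CPM in the dox libraries, against 43.6 and 39.8 CPM in the no dox libraries, with differences of -0.59 and -0.55. ALPK1, a kinase that senses a bacterial sugar, had differences of -0.51 and -1.54, the first of them just past the limit. P4HA1, a collagen prolyl hydroxylase, was just outside it with -0.81 and -0.46. MTG2, a GTPase of the mitochondrial ribosome, had differences of -0.75 and -0.70 with an unadjusted p of 0.190 in edgeR. Its tet-SLC7A2 differences, which enter the same estimate of the spread, were 0.69 and -1.41. Their part in this p was not tested. The further lower genes included CYP51A1, PFKFB4, ALDOC, TMEM263 and TENT5A.

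**Figure D3:**
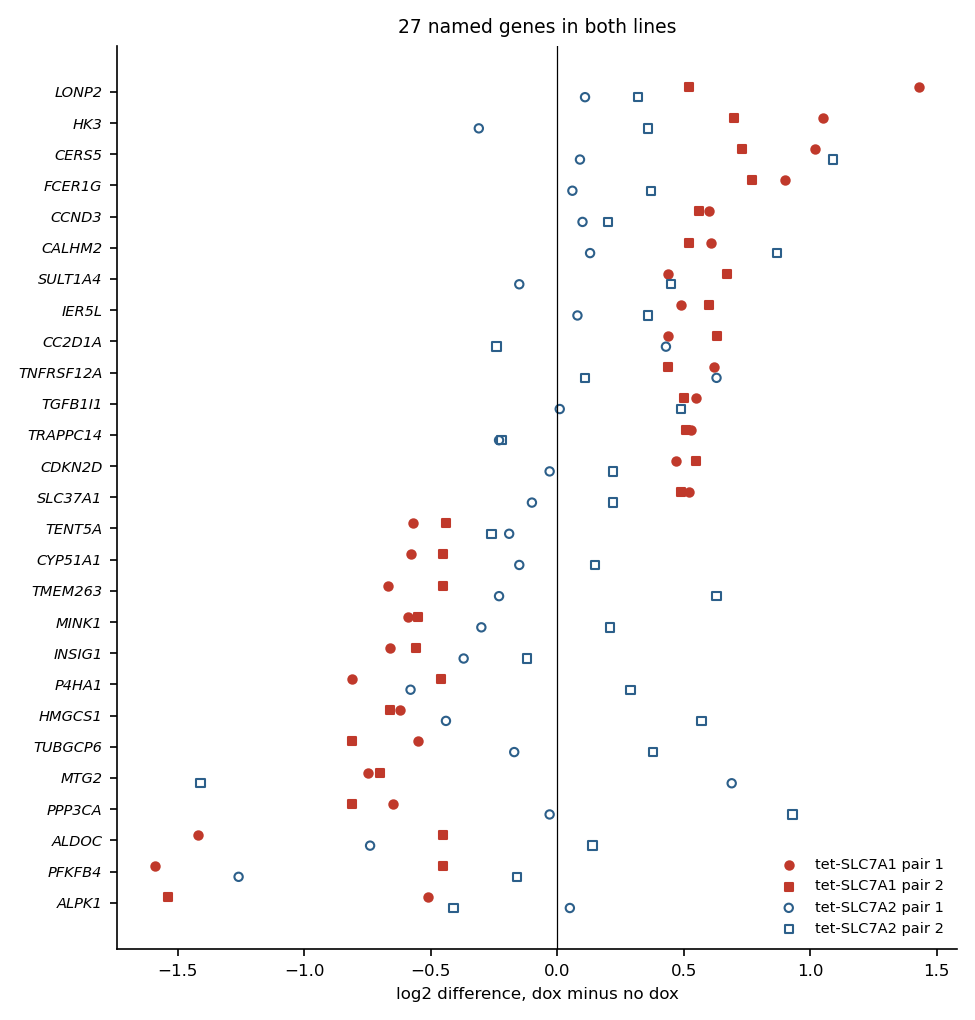
Dox minus no dox difference (log2, x axis) of 27 of the 30 ranked genes, HERC1 among those left out. Filled red symbols are the tet-SLC7A1 pairs and open blue symbols the tet-SLC7A2 pairs, circles for pair 1 and squares for pair 2. The red symbols are on 1 side by the choice of genes, and the blue symbols fall on both sides of 0 for most genes.

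Of the 15 higher genes 9 were also higher in both tet-SLC7A2 pairs. This held for 25.2% of all annotated genes tested and for 31.0% of those higher in both tet-SLC7A1 pairs. Of the 15 lower genes 3 were lower in both tet-SLC7A2 pairs, against 26.4% of all genes and 31.7% of those lower in both tet-SLC7A1 pairs. The 3 were INSIG1 (-0.37 and -0.12), PFKFB4 (-1.26 and -0.16) and TENT5A (-0.19 and -0.26). TRAPPC14 was the 1 gene with both tet-SLC7A2 differences on the other side (-0.23 and -0.22). The difference of the dox effects between the lines was called for 0 of 17503 entries (0.0%) by edgeR, with 519 at an unadjusted p under 0.05, and for 21 by DESeq2 with the block. For the 30 ranked genes the adjusted p of that difference was 1 in edgeR.

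Gene lists were described by how many of their tested members were higher or lower with dox in both pairs. Over all 11567 annotated genes tested these shares were 26.8% and 22.8%, and the median difference was 0.00 in pair 1 and 0.01 in pair 2. No member of any list passed edgeR.

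Genes of cholesterol synthesis and of SREBP2 were lower in both pairs in 21 of 23 members and higher in both in 0. The list median was -0.34 in pair 1 and -0.19 in pair 2. Along the pathway the difference was -0.62 and -0.66 for HMGCS1 and -0.48 and -0.34 for IDI1, an isomerase of a later step. It was -0.29 and -0.33 for SQLE, the squalene epoxidase, and -0.74 and -0.34 for MSMO1, which removes a sterol methyl group. The cholesterol transfer protein STARD4 had -0.41 and -0.42. SREBF2, the gene of the factor itself, had -0.01 and -0.04. EBP and NSDHL were the exceptions, with pair 2 differences of 0.03 and 0.01. Libraries numbered 2 lay above libraries numbered 1 for this list by a median of 0.64 among dox and 0.39 among no dox libraries, and this number effect was larger than the dox difference. In the tet-SLC7A2 line the list medians were -0.18 and -0.01, and HMGCS1 was at -0.44 and 0.57.

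SREBP1 targets of fatty acid synthesis had no common side, with 3 of 10 higher, 5 lower and medians of 0.04 and -0.07. ACSS2, which makes acetyl-CoA from acetate, had 50.8 and 47.8 CPM in the dox libraries, against 69.2 and 65.0 CPM in the no dox libraries, with a difference of -0.44 in each pair. ACACA, the first enzyme of fatty acid synthesis, was on the other side with 0.29 and 0.12.

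The ATF4 list was higher in both pairs in 21 of 28 members and lower in both in 0, with medians of 0.24 and 0.15. The enzymes of serine synthesis had differences of 0.13 and 0.18 for PHGDH, 0.54 and 0.14 for PSAT1, and 0.27 and 0.16 for PSPH. ASNS, which makes asparagine, had 0.25 and 0.21. CHAC1, which degrades glutathione, had 24.1 and 7.71 CPM in the dox libraries, against 18.9 and 6.15 CPM in the no dox libraries. SESN2, a leucine-binding regulator of mTORC1, had 60.2 and 28.0 CPM in the dox libraries, against 46.5 and 23.2 CPM in the no dox libraries. For both genes libraries numbered 1 were high and libraries numbered 2 low in each group, and the dox value was the higher one within each pair. ATF4 mRNA itself had 0.02 and 0.27. SLC38A2, a neutral amino acid transporter, had 0.91 and -0.38, the members' widest split. For this list libraries numbered 2 lay below libraries numbered 1 by a median of 0.51 among dox and 0.39 among no dox libraries. In the tet-SLC7A2 line the list medians were 0.12 and 0.26, on the same side.

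The cytosolic tRNA synthetases were higher in both pairs in 10 of 20 members and lower in 1, with a median of 0.10 in each pair. MARS1 led, followed by AARS1 with 0.21 and 0.24, and WARS1 had 112 and 102 CPM in the dox libraries, against 94.5 and 88.3 CPM in the no dox libraries. GARS1 had 0.27 and 0.19, CARS1 0.30 and 0.17, and RARS1, which charges the arginine tRNA, had -0.17 and 0.09.

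**Figure D4:**
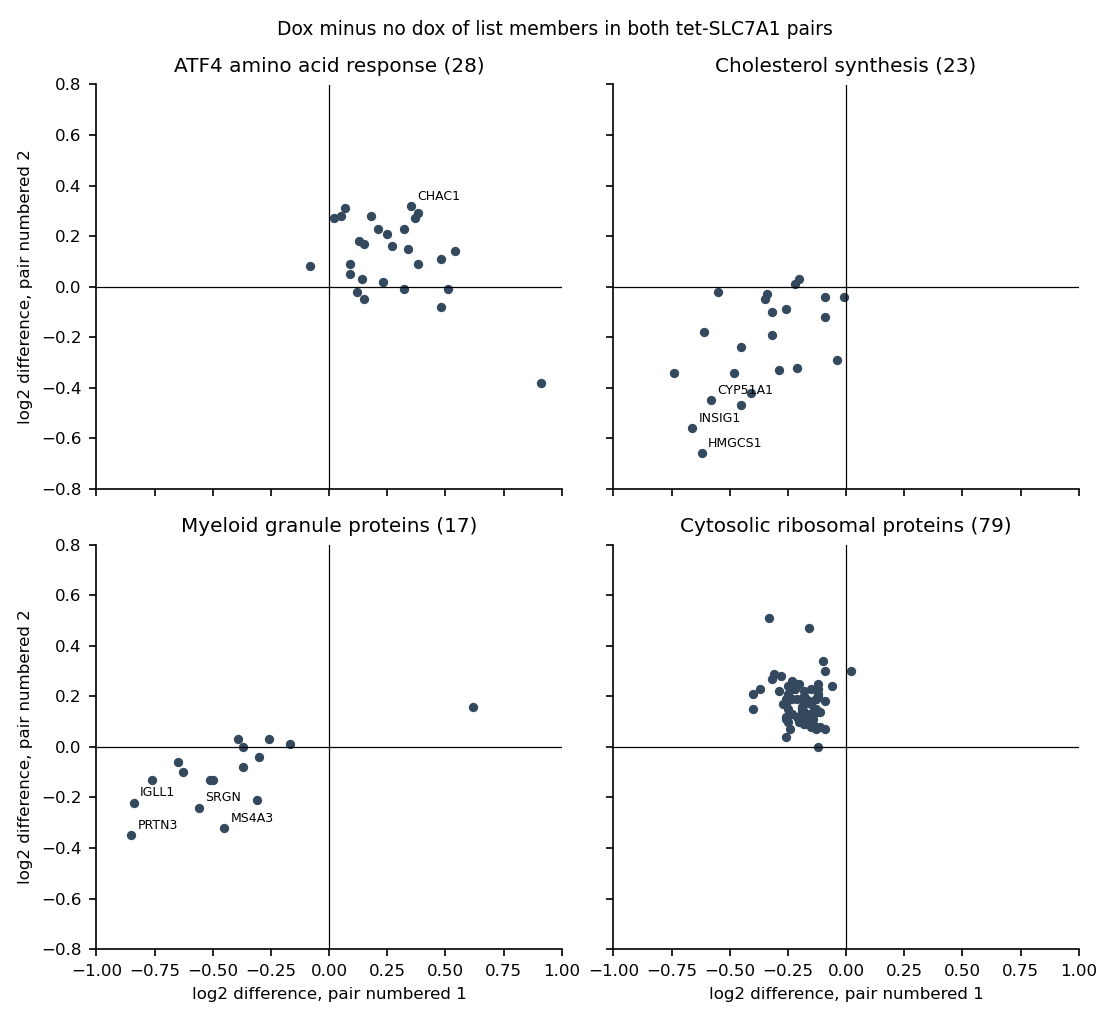
Dox minus no dox difference (log2) of each tested member of 4 lists, pair 1 on the x axis and pair 2 on the y axis, tet-SLC7A1 line. ATF4 members lie mostly at the upper right (21 of 28), cholesterol members in the lower left (21 of 23), granule members in the lower left with pair 1 the larger, and 78 of 79 cytosolic ribosomal proteins have pair 1 below 0 and pair 2 above it.

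Genes of amino acid transport were higher in both pairs in 10 of 21 members, the target SLC7A1 included, and lower in 3. SLC7A5, which exchanges large neutral amino acids, had 541 and 411 CPM in the dox libraries, against 466 and 350 CPM in the no dox libraries. SLC66A1, which exports cationic amino acids from lysosomes, had 32.2 and 28.0 CPM in the dox libraries, against 27.5 and 23.5 CPM in the no dox libraries, with no overlap. Its differences were 0.23 and 0.25. Genes of arginine use and polyamines showed no common side, with 6 of 23 higher, 2 lower and medians of -0.06 and 0.05. ATP13A2, a lysosomal polyamine exporter, had 177 and 167 CPM in the dox libraries, against 136 and 144 CPM in the no dox libraries. ODC1, the first enzyme of polyamine synthesis, had differences of 0.07 and 0.24, and ASS1, which remakes arginine, -0.07 and 0.13. Genes of amino acid sensing by mTORC1 were 12 of 40 higher and 10 lower, close to the shares over all genes. WDR59, of the GATOR2 complex, had 34.6 and 40.5 CPM in the dox libraries, against 47.9 and 48.4 CPM in the no dox libraries.

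Genes of cGAMP sensing, transport and degradation were 6 of 19 higher and 3 lower. STING1, the receptor of cGAMP, had differences of -0.11 and 0.02, and its kinase gene TBK1 0.20 and 0.33. LRRC8A, a subunit of channels that can pass cGAMP, had 30.7 and 24.1 CPM in the dox libraries, against 26.8 and 21.5 CPM in the no dox libraries. RNASEH2C, of the nuclease that removes ribonucleotides from DNA, had 30.2 and 30.6 CPM in the dox libraries, against 38.1 and 36.7 CPM in the no dox libraries. Its direction was the same in the tet-SLC7A2 line (-0.27 and -0.36). Interferon-stimulated genes were 16 of 38 higher and 5 lower, with medians of 0.07 and 0.14. ISG15, a ubiquitin-like modifier, had 12.3 and 11.8 CPM in the dox libraries, against 10.8 and 9.63 CPM in the no dox libraries. The members with the lowest means were IFIT2 (0.334 CPM), IFI44 (0.467 CPM), IFIT5 (0.648 CPM) and RSAD2 (0.871 CPM).

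Targets of NRF2, the factor of the oxidative stress response, were 10 of 17 higher and 0 lower, with medians of 0.22 and 0.09. PGD, of the pentose phosphate pathway, had 438 and 505 CPM in the dox libraries, against 360 and 428 CPM in the no dox libraries. SRXN1, which repairs peroxiredoxins, had 61.2 and 54.1 CPM in the dox libraries, against 50.9 and 47.4 CPM in the no dox libraries. For both genes the dox libraries lay above both no dox libraries. NQO1 had 0.47 and 0.10.

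Glycolysis and hypoxia genes were 19 of 30 lower and 3 higher, with medians of -0.25 in pair 1 and -0.07 in pair 2. PFKFB4, which sets the level of fructose 2,6-bisphosphate, had 33.9 and 106 CPM in the dox libraries, against 102 and 145 CPM in the no dox libraries. ALDOC, an aldolase, had 65.5 and 134 CPM in the dox libraries, against 176 and 183 CPM in the no dox libraries. For both the dox library numbered 1 was far the lowest of the 4. BNIP3, of mitophagy, had -1.05 and -0.31, and NDRG1 -0.98 and -0.26. VEGFA, another hypoxia gene, had 0.12 and -0.02. In the tet-SLC7A2 line PFKFB4 had -1.26 and -0.16, NDRG1 -0.70 and -0.11, and BNIP3 -0.69 and 0.27.

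Genes of myeloid granules were 13 of 17 lower and 1 higher, with medians of -0.45 and -0.10. The higher one was MPO, which averaged 0.674 CPM. PRTN3, the serine protease proteinase 3, had 376 and 547 CPM in the dox libraries, against 680 and 698 CPM in the no dox libraries. ELANE, neutrophil elastase, had 653 and 726 CPM in the dox libraries, against 1110 and 793 CPM in the no dox libraries. MS4A3 had 86.8 and 98.1 CPM in the dox libraries, against 119 and 123 CPM in the no dox libraries. In PRTN3, ELANE and MS4A3 both dox values lay below both no dox values, as in 9.09% of all annotated genes tested. The groups overlapped for SRGN, another member lower in both pairs. It had 185 and 411 CPM in the dox libraries, against 273 and 485 CPM in the no dox libraries. Most of the difference was in pair 1 for PRTN3 (-0.85, against -0.35 in pair 2) and ELANE (-0.76 against -0.13). MS4A3 was more even, with -0.45 and -0.32. LYZ, lysozyme, had -0.31 and -0.21. The summed monocytic and myeloid markers were 3060 and 3080 CPM of the library total in the dox libraries, against 4120 and 3410 CPM in the no dox libraries. Of these 13 markers, 5 are also in the granule list and summed to 1680 and 1880 CPM in the dox libraries, against 2630 and 2210 CPM in the no dox libraries. The other 8 summed to 1380 and 1210 CPM in the dox libraries, against 1490 and 1190 CPM in the no dox libraries, so the lower sum lay in the granule members. Of 12 tested markers 2 were higher and 5 lower in both pairs, with medians of -0.26 and 0.03. In bulk RNA fewer cells of a type and less RNA per cell cannot be told apart. The tet-SLC7A2 medians of the granule list were -0.06 and -0.51, so its second pair held the larger difference there. IRF8, a factor of monocyte differentiation, had 43.7 and 51.4 CPM in the dox libraries, against 61.6 and 64.4 CPM in the no dox libraries.

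Genes of endoplasmic reticulum folding were 13 of 25 lower and 2 higher, with medians of -0.14 and -0.12. HSP90B1, the chaperone GRP94, had 391 and 663 CPM in the dox libraries, against 496 and 767 CPM in the no dox libraries. Iron handling genes were 6 of 14 lower and 3 higher, TFRC among the lower. Genes of G1/S were 18 of 39 higher and 3 lower, and those of G2/M 15 of 32 higher and 2 lower, although the G2/M median was 0.17 in pair 1 and -0.01 in pair 2. CDC20, the activator of the anaphase-promoting complex, had 475 and 430 CPM in the dox libraries, against 377 and 367 CPM in the no dox libraries, with no overlap. Proteasome subunits were 16 of 31 higher and 1 lower, with medians of 0.01 and 0.13. PSMD11 had differences of 0.19 and 0.28.

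**Figure D5:**
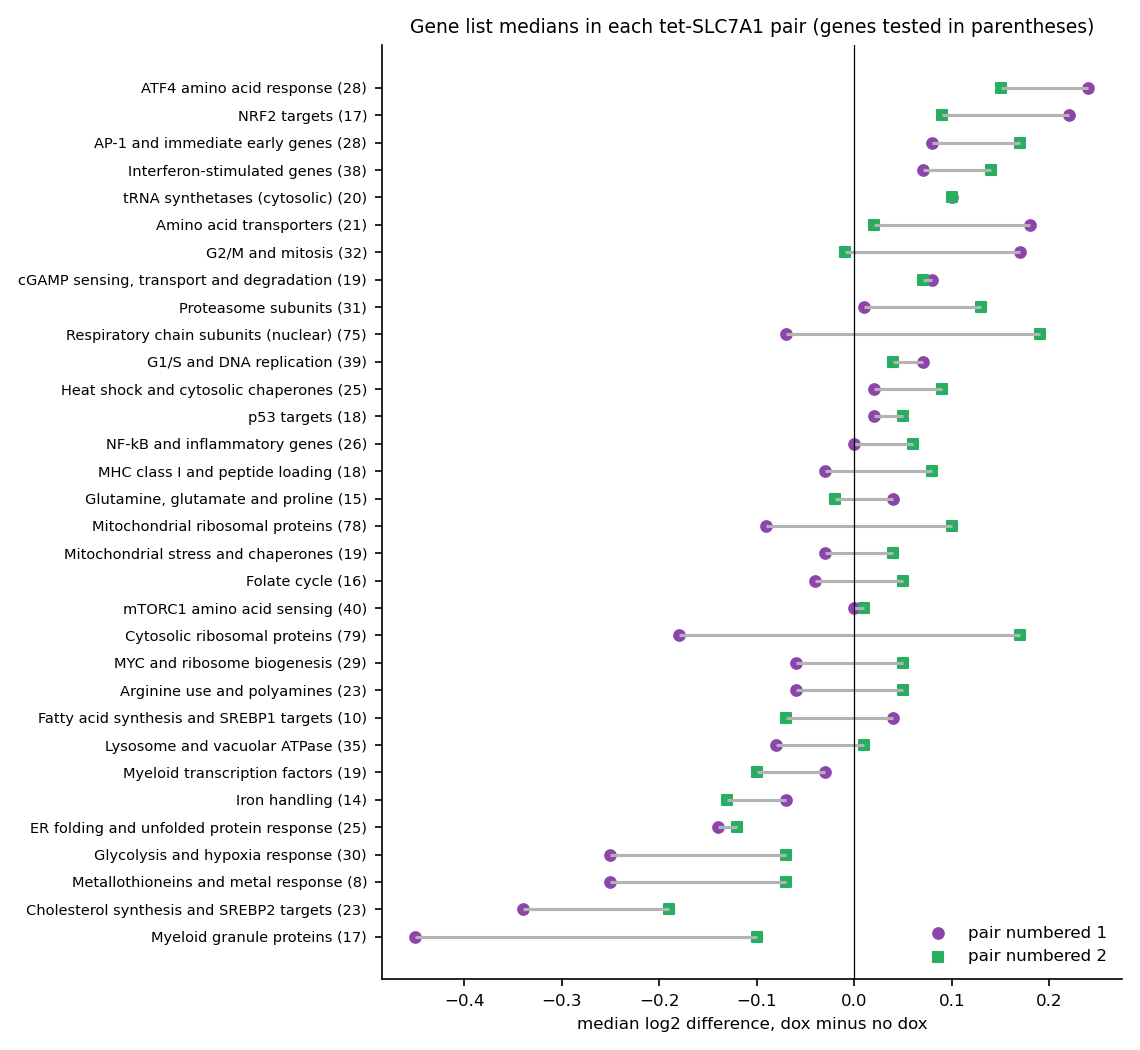
Median dox minus no dox difference (log2, x axis) of the tested members of each gene list in the tet-SLC7A1 line, circles for pair 1 and squares for pair 2, with a grey line between them. Cholesterol and granule lists have both medians below 0, ATF4 and NRF2 lists both above 0, and the cytosolic ribosomal proteins have -0.18 in pair 1 and 0.17 in pair 2.

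The pairs disagreed in genes of the ribosome and of the respiratory chain. Cytosolic ribosomal proteins were lower in pair 1 and higher in pair 2 in 78 of 79 members, with medians of -0.18 and 0.17, and RPLP1 was the exception with 0.02 and 0.30. Respiratory chain subunits did so in 55 of 75 members (medians -0.07 and 0.19) and mitochondrial ribosomal proteins in 53 of 78 (-0.09 and 0.10). Gene length moved with this. Among the 8063 genes split into 5 equal bins by length, the bin of the shortest genes had medians of -0.08 in pair 1 and 0.12 in pair 2, and that of the longest 0.07 and -0.06. The part of gene length in the ribosomal values was not tested, and many ribosomal protein genes have processed copies, which makes single counts uncertain. Single genes showed the opposite split. DMXL2, of the regulators of the vacuolar proton pump, had 20.2 and 16.4 CPM in the dox libraries, against 7.70 and 34.9 CPM in the no dox libraries. TAB2, an adaptor of the kinase TAK1, had 20.6 and 20.0 CPM in the dox libraries, against 6.60 and 32.7 CPM in the no dox libraries. In both the no dox libraries were the extremes and the dox libraries lay between them.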

How the data were processed

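The members, gene lists and rules were chosen with earlier results of these data known. Per the labels, poly(A) RNA was made into libraries by random priming and read as 150-base pairs of reads from DNA nanoballs. The authors deposited expected counts per gene, made per the file headers as read counts that need not be whole, together with FPKM, TPM and gene lengths. The submitters' processing notes list RSEM 1.3.1, DESeq2 1.4.5, Bowtie2 2.3.4.3, HISAT and the build hg38 without giving a role. The handling of strand was not given in the sources used here, which makes values of overlapping and antisense genes uncertain. The authors' deposited TPM was used for levels of the construct, and the deposited FPKM was not used.

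Genes absent from a file were set to 0. Of 22653 entries, 15386 were Entrez numbers (15340 with a symbol), 7264 XLOC loci with 6.56% to 7.25% of a library's counts, and 3 constructs. Library totals over all 8 libraries ran from 17309132 to 18441833. Without molecular identifiers, floors and counting errors cover counting alone. The chi-square per gene between libraries of a group was 20.63 to 45.56, and none was treated as a copy.

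Expected counts were rounded. Entries passing filterByExpr (minimum count 10, minimum total 15), 17503 in all, were scaled by TMM, and edgeR 4.0.16 gave quasi-likelihood F tests (R 4.3.3, limma 3.58.1). The fit took all 8 libraries, with the replicate number as a block within a line and 1 dox effect per line, and p-values were adjusted by Benjamini-Hochberg over all entries at 0.05. Blocking on the number followed the way the comparison was posed, and the labels do not say what a number marks. The SE was taken as the absolute log2 fold change divided by the root of F. DESeq2 1.42.0 was the alternative. Pair differences used log2 CPM with a prior count of 2. Genes named were the constructs and transporters, entries passing edgeR, the 15 genes in each direction with the largest smaller pair difference among those of at least 10 CPM, and up to 3 members per list by the same measure. Genes called by DESeq2, genes with 1 low library, genes with opposite pairs and further list members with a known role were named after their values were seen. Promoter windows came from the RefSeq table by symbol. Some genes are counted but not reported here by name.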

Additional observations from a re-analysis of the deposited data

How the results depend on the processing

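The 2 edgeR calls stayed 2 with DESeq2 size factors, with no filter on low counts and with the 4 tet-SLC7A1 libraries alone. They became 0 without the replicate block (222 at an unadjusted p under 0.05), 0 with annotated genes only, 45 by DESeq2 with the block and 9 by DESeq2 without it, an alternative added after seeing the data. Leaving out 1 pair gave 4 to 11, with the spread of the lone pair taken from the tet-SLC7A2 line. The cause of these moves was not tested. The difference between lines had 0 calls in edgeR with or without the replicate block, 21 in DESeq2 with it and 20 without it. The 17 genes beyond 0.5 in both pairs became 9 with the other pairing of the 4 libraries, 123 at a limit of 0.3 and 116 at a mean CPM of at least 1. They stayed 17 with a prior count of 0.5 and with DESeq2 size factors.

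The labels do not say what a replicate number marks. Across 8063 genes the number 2 minus number 1 difference of the dox libraries correlated with that of the no dox libraries at a Pearson r of 0.61 in the tet-SLC7A1 line and 0.70 in the tet-SLC7A2 line, and at 0.03 to 0.45 across lines. This is a hint of pairing from the data and not from the design. A value under 0.163 CPM rests on fewer than 3 counts in every tet-SLC7A1 library.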

Other observations

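Lists not named so far had mixed signs in the tet-SLC7A1 pairs. Of the lysosome and vacuolar ATPase list 6 of 35 members were higher and 11 lower in both pairs, with ATP6V0D1, a subunit of the proton pump, at 49.8 and 39.2 CPM in the dox libraries, against 37.0 and 32.9 CPM in the no dox libraries. LAMP2, a lysosomal membrane protein, had differences of -0.23 and -0.36. The AP-1 and immediate early list was 11 of 28 higher and 2 lower, while 15 differed in sign, with medians of 0.08 and 0.17. Its median number 2 minus number 1 difference was larger in size, at -0.68 among dox and -0.91 among no dox libraries. The p53 targets were 8 of 18 higher and 4 lower. AEN, a nuclease induced by p53, had differences of 0.16 and 0.42. Among NF-kB and inflammatory genes 10 of 26 were higher and 7 lower. NFKB1 had 34.0 and 28.8 CPM in the dox libraries, against 18.5 and 25.3 CPM in the no dox libraries, while its tet-SLC7A2 differences were -0.72 and -0.45. IL1B, an inflammatory cytokine, had 12.2 and 12.7 CPM in the dox libraries, against 9.27 and 10.4 CPM in the no dox libraries.

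Of the folate cycle list, which bears on cells without SLC19A1, 6 of 16 were higher and 3 lower. MTHFD1L, of mitochondrial formate release, had 165 and 160 CPM in the dox libraries, against 141 and 148 CPM in the no dox libraries. MHC class I and peptide loading genes were 6 of 18 higher and 4 lower, and heat shock genes 10 of 25 higher and 2 lower. Genes of MYC and ribosome biogenesis were 3 of 29 higher and 4 lower, with 17 lower in pair 1 and higher in pair 2. None of these genes passed the edgeR test.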
